A study of Mus musculus with 2 samples.

Results

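The amyloid precursor family and the proteases that cut it were described here through 9 genes, taken by symbol from the 55536 genes of the deposited gene tables. They are the 3 precursor genes App, Aplp1 and Aplp2, the alpha-secretase gene Adam10, the beta-secretase gene Bace1, and the gamma-secretase genes Psen2, Ncstn, Aph1a and Psenen. The rule took genes by name and used no measured value, but the list was chosen with earlier results of these data known. The study sequenced total RNA of hippocampus tissue taken from B6CASTF1/J males aged 2 months, an F1 hybrid whose parents carry the C57BL/6J and CAST/EiJ genomes, with no treatment named. There were 2 libraries, biological replicates 1 and 2 of a single group, each made from 300 ng of RNA with ERCC spike-in controls. No comparison between groups exists, so no test was possible and every value is a description of these libraries. The labels name the tissue as a layer of the hippocampus without saying which, and give the same donor identifier for both libraries, and nothing beyond the word biological says that they came from separate animals.

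App is a membrane protein of neurons and other cells with a long extracellular part and a short cytoplasmic tail. Adam10 sheds the extracellular part by a cut inside the amyloid beta sequence, while Bace1 cuts at the start of that sequence. The stub that either enzyme leaves is cut within the membrane by gamma-secretase, a complex of a presenilin, nicastrin (Ncstn), Aph1 and Pen-2 (Psenen), and the cut that follows Bace1 releases amyloid beta. Aplp1 and Aplp2 are relatives of App that the same enzymes process but that lack the amyloid beta sequence. App and Aplp2 have an optional exon for a Kunitz domain, an inhibitor of serine proteases, and neurons are known for the 695-residue App form without it.

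The transcript results turn on a few optional exons, given here on the coding strand, 5′ to 3′, from the GENCODE M21 transcripts on mm10. The Kunitz exons are exon 7 of App (chr16:85043576-85043743, minus strand) and exon 7 of Aplp2 (chr9:31167561-31167728, minus strand). Both are 168 bases long, and 114 of the bases (67.9%) are the same at the same position, which the capitals mark.
App exon 7: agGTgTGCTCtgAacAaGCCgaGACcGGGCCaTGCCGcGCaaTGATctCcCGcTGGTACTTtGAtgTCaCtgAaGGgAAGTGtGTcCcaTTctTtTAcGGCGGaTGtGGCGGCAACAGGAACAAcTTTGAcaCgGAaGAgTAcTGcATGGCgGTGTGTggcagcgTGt
Aplp2 exon 7: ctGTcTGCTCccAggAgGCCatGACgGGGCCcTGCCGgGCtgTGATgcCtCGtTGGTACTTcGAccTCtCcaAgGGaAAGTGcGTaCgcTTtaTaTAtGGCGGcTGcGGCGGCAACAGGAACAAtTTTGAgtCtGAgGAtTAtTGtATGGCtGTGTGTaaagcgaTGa
App exon 8 (57 bases, chr16:85040251-85040307) follows the Kunitz exon, and App exon 15 (54 bases, chr16:84971408-84971461) lies before the amyloid beta part; each is left out of some forms and keeps the reading frame.
App exon 8: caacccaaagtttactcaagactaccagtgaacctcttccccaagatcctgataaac
App exon 15: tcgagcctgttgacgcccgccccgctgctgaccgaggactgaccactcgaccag
App exons 16 (101 bases, chr16:84965670-84965770) and 17 (147 bases, chr16:84962722-84962868) are shown because they encode amyloid beta. The cut sites of beta- and alpha-secretase are in exon 16 and those of gamma-secretase in exon 17.
App exon 16: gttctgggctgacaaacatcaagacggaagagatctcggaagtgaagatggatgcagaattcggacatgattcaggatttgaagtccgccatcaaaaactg
App exon 17: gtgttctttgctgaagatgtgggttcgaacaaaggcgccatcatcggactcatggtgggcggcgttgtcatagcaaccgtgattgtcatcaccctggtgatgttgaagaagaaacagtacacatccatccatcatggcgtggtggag
Aplp2 has a second optional exon, exon 13 of the transcript Aplp2-202 (36 bases, chr9:31156190-31156225), and Bace1 has exon 6 (102 bases, chr9:45858400-45858501, plus strand), which codes for one of the active-site aspartates of this aspartyl protease.
Aplp2 exon 13: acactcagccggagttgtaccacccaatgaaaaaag
Bace1 exon 6: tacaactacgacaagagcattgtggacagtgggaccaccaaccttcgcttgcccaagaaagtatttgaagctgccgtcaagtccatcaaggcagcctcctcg

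All 9 genes were detected, which here means a level of at least 1 TPM in each of the 2 libraries. TPM is a unit of transcript abundance, a read count divided by transcript length and scaled to the same total in every library, so levels of different genes can be set beside each other. Of all 22028 protein-coding genes, 57.7% were detected, 12710 in number. The precursor genes stood far above the secretase genes. Aplp1 ranked 56th and App 64th in mean TPM among the detected protein-coding genes, while the 6 secretase genes lay between the 33.2nd and the 78.0th percentile. The median percentile of the 9 genes was 74.2. As these are bulk samples, fewer cells of a type and less RNA per cell cannot be told apart in any level given here.

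App, the source of amyloid beta, had 500 TPM in the first replicate and 497 in the second, with a mean of 498 ± 2.54 TPM (SD, n = 2). It lies on chromosome 16 from 84949685 to 85173766 on the minus strand, and 35406 and 36114 expected counts stood behind its levels. Aplp1, on chromosome 7 from 30434982 to 30445535 on the minus strand, is the family member most restricted to neurons, and had 531 and 554 TPM, a mean of 543 ± 15.8 TPM. Both Aplp1 values were above both App values, and the ratio of Aplp1 to App was 1.06 and 1.12. Aplp2, on chromosome 9 from 31149557 to 31211815 on the minus strand, is the most widely expressed of the family, and had 191 and 175 TPM, a mean of 183 ± 11.99 TPM. The 2 Aplp2 values were below all App and Aplp1 values, with App 2.61 and 2.85 times higher.

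Together the 3 precursor genes had 1223 TPM in replicate 1 and 1225 TPM in replicate 2. Of that sum App held 40.7% ± 0.251, Aplp1 44.3% ± 1.25 and Aplp2 14.95% ± 0.995 (SD, n = 2). The order of App and Aplp1 turned with the unit: in expected counts, which are not per length, App held 48.6% and Aplp1 37.1%. In the second quantification, which was made directly from the reads, App held 40.1% and Aplp1 41.6%, with Aplp1 above App in both libraries.

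Adam10, the main alpha-secretase of neurons, had 27.3 and 25.4 TPM, a mean of 26.3 ± 1.39 TPM. The gene lies on chromosome 9 from 70678997 to 70780229 on the plus strand. Bace1, the beta-secretase, lies on the same chromosome from 45838580 to 45864399 on the plus strand, and had 32.7 and 30.5 TPM, a mean of 31.6 ± 1.53 TPM. Bace1 was 1.20 times Adam10 in each library, and in the second quantification 1.02 and 1.20 times. App stood 15.3 and 16.3 times above Bace1, and 18.3 and 19.6 times above Adam10. These ratios compare RNA levels per length and say nothing of enzyme activity.

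The 4 genes of the gamma-secretase complex were at unequal RNA levels. Psenen, the smallest subunit, needed for cleavage of presenilin into its active form, had 37.57 and 35.96 TPM, a mean of 36.8 ± 1.14 TPM, the highest of the 4. Aph1a, a scaffold subunit, had 28.1 and 27.6 TPM, a mean of 27.8 ± 0.354 TPM. Ncstn, the nicastrin subunit at which substrates gather, had 23.7 and 24.1 TPM, a mean of 23.9 ± 0.283 TPM. Psen2, a catalytic subunit, was lowest of the 9 genes at 9.05 and 7.84 TPM, a mean of 8.45 ± 0.856 TPM. Psenen was 4.15 and 4.59 times Psen2, and Ncstn 2.62 and 3.07 times. Psenen lies on chromosome 7 from 30561863 to 30563627 (minus strand), Aph1a on chromosome 3 from 95893969 to 95898288 (plus strand). Ncstn and Psen2 both lie on chromosome 1, from 172066013 to 172082795 and from 180227004 to 180263438 (minus strand).

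**Figure D1:**
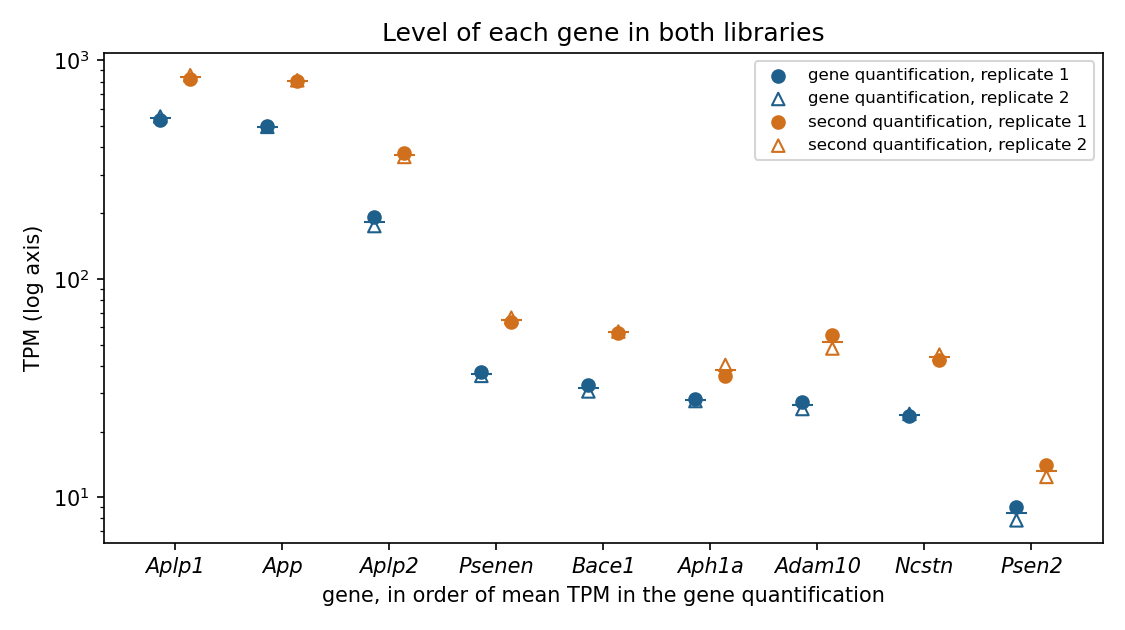
TPM (log axis) of the 9 genes in replicate 1 (circles) and replicate 2 (triangles), in the gene quantification (blue) and the second quantification (orange); short lines are means of the 2 libraries. Aplp1 and App sit near 500 TPM, Aplp2 at 183 TPM, and the secretase genes between 8.45 and 36.8 TPM in the gene quantification.

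In the order Aplp1, App, Aplp2, Psenen, Bace1, Aph1a, Adam10, Ncstn, Psen2, no neighbours had library values that overlapped. The files also give an interval around each TPM within a library, whose level the headers do not state. Those intervals overlapped in both libraries for Psenen and Bace1, for Bace1 and Aph1a, and for Aph1a and Adam10, so these neighbours did not differ beyond that spread. For Adam10 and Ncstn they overlapped in replicate 2 and not in replicate 1. They did not overlap in either library for Aplp1 and App, App and Aplp2, Aplp2 and Psenen, or Ncstn and Psen2. For App and Aplp1 the deposited TPM lay above its own interval in both libraries, while the other 7 genes lay inside theirs. The order in the second quantification was the same except for Aph1a, which moved from 6th to 8th, behind Adam10 and Ncstn.

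None of the 9 genes was 2-fold apart between the libraries, against 0.273% of the 13916 genes with at least 50 expected counts in both. The count was also 0 with TMM-scaled counts (0.115% of genes), in the second quantification (0.33%), at 1.5-fold (1.79%) and with no count minimum (10.8%). In TPM, Psen2, the gene with the fewest reads (323 and 301 expected counts), differed most, with a log2 ratio of replicate 2 over replicate 1 of -0.21. Of all genes tested, 76.8% had a smaller TPM ratio in size. With TMM-scaled counts Aph1a differed most, at 0.17, and in the second quantification Adam10, at -0.20. In TPM, 7 of the 9 genes were lower in replicate 2, against 4 after TMM scaling of the counts and 3 by the second quantification. Aplp2, Adam10 and Psen2 were lower on all 3 scales, and Aplp1 and Ncstn were higher on all 3. App, Psenen and Aph1a were lower in TPM and higher on the other scales, and Bace1 was higher in the second quantification only. The median log2 TPM ratio was -0.06 over the 9 genes and -0.04 over all genes tested.

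**Figure D2:**
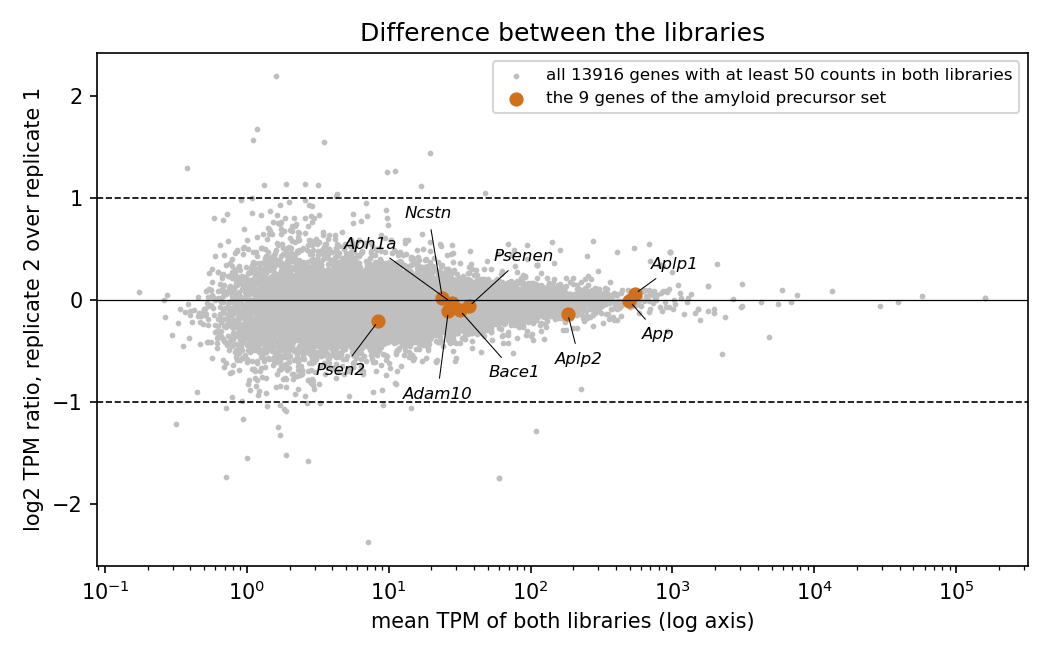
The log2 TPM ratio of replicate 2 over replicate 1 against mean TPM (log axis) for the 13916 genes with at least 50 expected counts in both libraries (grey) and the 9 genes (orange); dashed lines mark 2-fold. The 9 genes lie between -0.21 and 0.06 in TPM.

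Of the App RNA, nearly all was the neuronal form. App-201, which encodes the 695-residue protein without exons 7 and 8, had 457 and 455 TPM, 91.5% and 91.7% of App TPM (mean 91.6% ± 0.169). The second quantification gave it 90.7% and 90.3%. The forms with the Kunitz exon were minor in both libraries. App-202 (751 residues, exon 7 without exon 8) had 22.1 and 20.7 TPM, 4.29% ± 0.168 of the gene. App-206 (770 residues, both exons) held 1.70% ± 0.0339. App-203 (752 residues, both exons but no exon 15) held 1.51% ± 0.0942. These minor forms fell below the 5% at which transcripts were otherwise named, and are given because they are the alternatives to the neuronal form. App-204, a 733-residue form without exons 8 and 15, was listed at 0 in both libraries, with intervals reaching 0.869 and 1.51 TPM.

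By exon, transcripts that hold the Kunitz exon had 7.67% ± 0.0773 of App TPM, and the remaining 92.3% was in transcripts without it. Among transcripts that span the exon's position, 7.78% and 7.66% held it, and 8.74% and 9.07% in the second quantification. Exon 8 was held by 3.34% and 3.46% of the spanning TPM, so fewer transcripts held it than held the Kunitz exon. Exon 15 was held by 98.5% and 98.4%; forms that skip it are known mainly from cells other than neurons. Exons 16 and 17, which carry amyloid beta, were held by 99.2% ± 0.197 and 99.5% ± 0.172 of App TPM. Thus the optional parts varied upstream of amyloid beta, while its exons were in nearly every transcript counted.

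Aplp2 differed from App in this respect. Of its TPM, 49.2% ± 0.994 was in transcripts that hold the Kunitz exon, 27.5% ± 1.18 in transcripts that skip it, and 23.3% in transcripts that do not reach it. Among spanning transcripts, the exon was held by 63.1% and 65.1%, and by 72.8% and 75.0% in the second quantification. In each library and quantification the share was thus several times that of the App Kunitz exon, and the values did not overlap. This Aplp2 share counts Aplp2-203, annotated with an incomplete coding end, and Aplp2-208, a transcript that keeps an intron. Among detected transcripts with a complete coding sequence the order was the reverse. Aplp2-202, without the exon, held 27.5% of Aplp2 TPM, and Aplp2-201, with it, 22.5%. In the second quantification they held 19.0% and 11.5%. The transcripts without the exon, counted as for App with those that do not reach it, held 50.8% of Aplp2 TPM. That value was 38.1% among protein-coding transcripts alone, which include Aplp2-203. It was 35.9% among spanning transcripts, and 26.1% among spanning transcripts of the second quantification. The value thus depends on both the transcripts counted and the quantification.

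The Aplp2 RNA was divided among several transcripts. Aplp2-202 (707 residues, no Kunitz exon, with the 36-base exon 13) had 54.3 and 46.6 TPM, 27.5% ± 1.18 of the gene. Aplp2-201 (751 residues, Kunitz exon, no exon 13) had 40.7 and 41.4 TPM, 22.5% ± 1.73. Aplp2-203 (Kunitz exon and exon 13, annotated with an incomplete coding end) had 42.9 and 39.0 TPM, 22.4% ± 0.0361. In the second quantification the incomplete Aplp2-203 led with 30.0%, ahead of Aplp2-207 with 19.2% and Aplp2-202 with 19.0%. Exon 13 lies in the part just outside the membrane, and its absence creates an attachment site for a chondroitin sulfate chain; it was held by 71.4% and 68.0% of spanning TPM. In the second quantification it was held by 82.9% and 81.2%. Aplp2-209, which lacks both exons, was listed at 0 in both libraries and both quantifications.

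**Figure D3:**
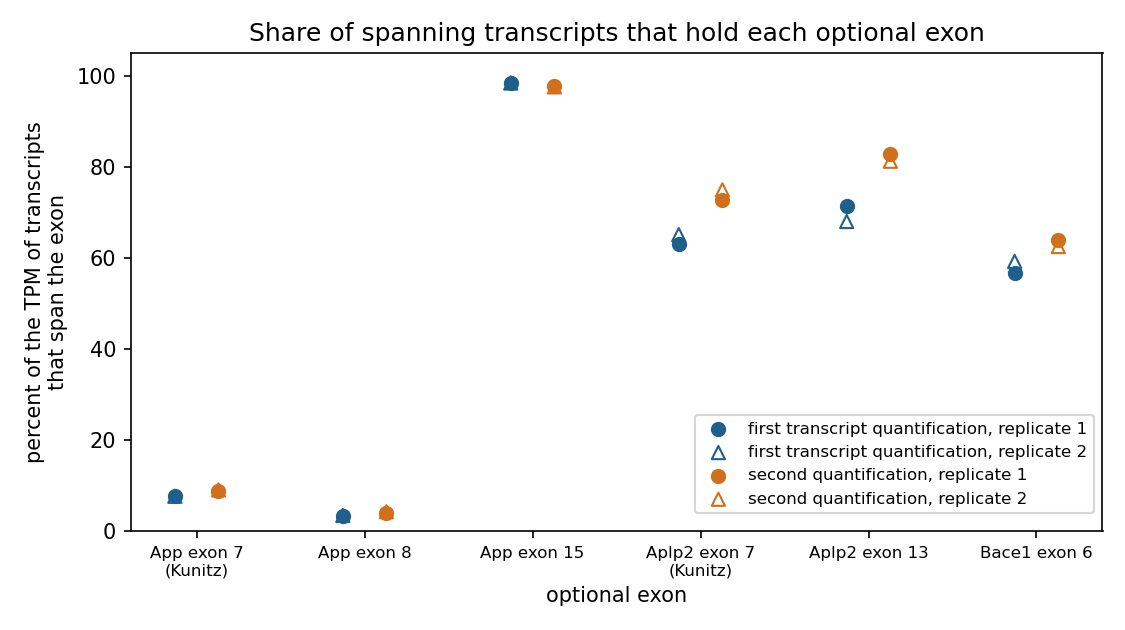
Percent of the TPM of spanning transcripts that holds each optional exon, in replicate 1 (circles) and replicate 2 (triangles), for the first transcript quantification (blue) and the second (orange). The App Kunitz exon lies at 7.66% to 9.07% and the Aplp2 Kunitz exon at 63.1% to 75.0%.

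Retained-intron transcripts, which keep an intron and are not expected to encode the full protein, were a large part of Aplp2. Aplp2-207 held 17.6% ± 0.935 and Aplp2-208 4.31% ± 0.699, and the 6 transcripts of this class together held 27.6% ± 0.515, or 39.6% in the second quantification. For App, 2 such transcripts held 0.433%, and for Aplp1, 4 held 3.09%. Aplp1 had 1 protein-coding transcript, Aplp1-201 (654 residues), with 516 and 536 TPM and 96.9% ± 0.272 of the gene. It has no Kunitz exon. Total RNA also holds unspliced and partly spliced RNA, whose part in these shares was not tested.

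Bace1 RNA was shared almost equally by 2 coding transcripts in the first quantification. Bace1-201, which encodes the full 501 residues, had 13.7 and 12.6 TPM, 41.6% ± 0.409 of the gene. Bace1-202, which lacks exon 6 and encodes 467 residues, had 13.6 and 12.2 TPM, 40.8% ± 1.12. Exon 6, with its active-site aspartate, was held by 56.8% and 59.2% of the spanning TPM, and by 64.0% and 62.5% in the second quantification. There Bace1-202 led with 36.7%, ahead of Bace1-201 with 29.1%, of Bace1-206 (incomplete coding end) with 18.7% and of the retained-intron Bace1-204 with 15.4%. The same 2 short or intron-holding transcripts had 8.57% and 6.20% in the first quantification. Both hold exon 6 and are counted in its share. Bace1-201 is 6058 bases long and Bace1-202 4041 bases, so they also differ outside the exon.

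Adam10 was mainly 1 form. Adam10-201 (749 residues) had 22.6 and 19.2 TPM, 79.1% ± 4.81 of the gene, and 57.7% in the second quantification. Adam10-202, annotated as a target of nonsense-mediated decay, which removes RNAs with an early stop, had 4.26 and 5.74 TPM, 19.1% ± 4.98. It was higher and Adam10-201 lower in replicate 2. Adam10-203, a short incomplete transcript that skips exons 2 to 4, was at 0 in the first quantification and at 19.3% and 10.1% in the second.

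Among the gamma-secretase genes, Aph1a has a long and a short form with different ends. Aph1a-202 (265 residues, the long form) had 13.8 and 18.0 TPM, 49.1% and 65.2% of the gene, a mean of 57.1% ± 11.4. Aph1a-201 (247 residues, the short form) had 5.59 and 5.35 TPM, 19.6% ± 0.355. The coding sequences share 734 bases and part where the long form goes on for 61 bases of its own, given here because only these bases of the coding sequence, and 7 of the short form, tell the forms apart.
Aph1a-202 own end: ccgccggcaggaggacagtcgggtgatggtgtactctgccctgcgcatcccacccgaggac
The share of the long form was above that of the short form in both libraries and in the second quantification, at 64.8% against 20.98%. The long form's share was higher in replicate 2 in both quantifications, at 62.2% and 67.3% in the second. Aph1a-203, a 286-base incomplete transcript, had 20.4% in replicate 1 and 6.02% in replicate 2. The second quantification put Aph1a-203 at 0. The retained-intron Aph1a-204 held 10.04% ± 0.861.

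Ncstn-201, the only Ncstn transcript annotated as protein-coding (708 residues), had 17.9 TPM in each library, 75.1% ± 0.911 of the gene, and 58.0% in the second quantification. The 3 retained-intron transcripts Ncstn-202, Ncstn-203 and Ncstn-205 together held 22.1% ± 0.709, with 5.75%, 10.5% and 5.91%. Ncstn-204, annotated for nonsense-mediated decay, held 2.36%, and 9.84% in the second quantification.

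Psenen encodes 101 residues in Psenen-201 and Psenen-203, which together held 84.9% ± 1.26 of its TPM and 98.6% ± 1.04 in the second quantification. How the 2 were divided was not stable across quantifications: Psenen-201 held 71.6% in the first and 44.8% in the second, and Psenen-203 13.3% and 53.8%. Psenen-205, without a coding sequence, held 6.83% and was at 0 in the second.

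Psen2 showed the same pattern at the lowest depth. The 4 transcripts Psen2-201, Psen2-203, Psen2-204 and Psen2-205 encode the same 448 residues and together held 60.7% ± 5.81 of Psen2 TPM, or 68.9% ± 6.08 in the second quantification. The first quantification put 52.3% ± 17.7 on Psen2-205 and 1.55% on Psen2-204, while the second put 0.233% on Psen2-205 and 68.7% on Psen2-204. In the first, the Psen2-205 TPM (3.61 and 5.09) lay above its own interval in both libraries, with upper bounds of 3.33 and 4.42. Psen2-201 had 13.7% of the TPM in replicate 1 and was at 0 in replicate 2. Psen2-202 (447 residues) held 7.04%. The other named transcripts carry no full coding sequence: Psen2-206, Psen2-208, Psen2-211 and Psen2-212 held between 7.03% and 9.59%. The sum over the 4 transcripts thus differed less between the quantifications than the shares of Psen2-204 and Psen2-205 did.

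**Figure D4:**
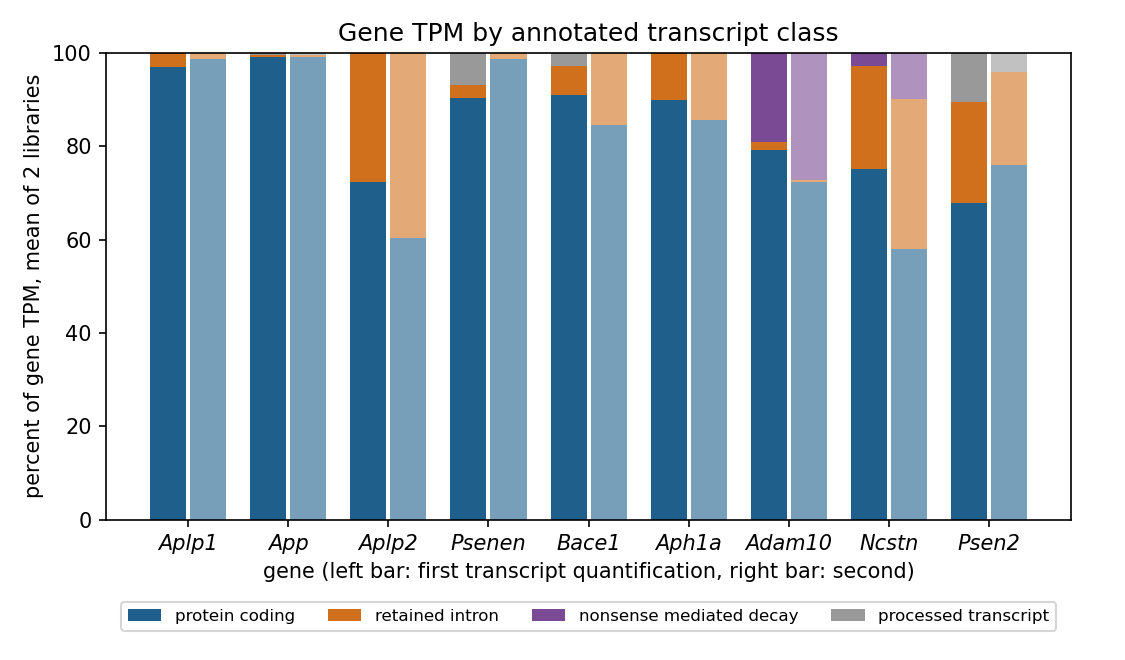
Percent of each gene's TPM by annotated transcript class, mean of the 2 libraries, in the first transcript quantification (left bars) and the second (right bars, paler). Coding transcripts held 99.1% of App and 72.4% of Aplp2 TPM in the first quantification.

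Across the 9 genes the share in protein-coding transcripts ran from 67.8% (Psen2) to 99.1% (App). Its median over the 11503 detected protein-coding genes with more than 1 transcript was 86.2%, with App at the 82.1st percentile and Psen2 at the 23.8th. The most abundant transcript differed between the quantifications for 4 of the 9 genes, Aplp2, Bace1, Psen2 and Psenen, against 24.5% of detected protein-coding genes with more than 1 transcript. For App, Aplp1, Adam10, Aph1a and Ncstn it was the same. Of the 65 annotated transcripts of the 9 genes, 25 had at least 50 expected counts in both libraries, and none of these was 2-fold apart, against 2.88% of all transcripts so tested.

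Of the genes, 5 share exon bases with a gene on the opposite strand, and whether the counting used strand is not given in the sources used here. Bace1 shares the most exon bases. Rnf214 (30.6 and 27.8 TPM) shares 975 bases, 15.4% of the Bace1 exon bases. The unclassified transcript gene Gm49338 (8.24 and 8.18 TPM) shares 951 bases, and the antisense gene Gm16536 (6.48 and 6.65 TPM) 135 bases. Aph1a shares 445 bases with Car14 (4.03 and 3.05 TPM), Psenen 119 bases with U2af1l4 (37.0 and 31.2 TPM) and 111 with Gm49396 (3.67 and 3.31 TPM), and Ncstn 195 bases with Copa (59.9 and 57.3 TPM). The antisense gene Gm49227, which shares 113 bases with App, had 0.0500 and 0.100 TPM. Without strand, a read in the shared bases could come from either gene, and how such reads were counted was not tested. Of the 5 genes, only Aph1a had expected counts that were not whole numbers (1010.02 and 1127.71).

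RefSeq promoter windows on GRCm38.p6, from 250 bases before to 50 after a gene's start, matched 8 of the 9 genes, all but Bace1. They had a median GC content of 66.3% and a median of 25.5 CpG sites, against 52.7% and 7 over 32851 windows. A GC box (GGGCGG, either strand) was in 6 of the 8 and in 35.7% of all windows. A TATA box (TATAAA, either strand) was in 0 of the 8 and in 13.6% of all windows. A CCAAT box was in 4 of the 8 and in 37.4% of all windows, and an E box in 1 of the 8 and in 7.15%. Psen2 and Psenen each had 2 windows, of which 1 was used. A match is only a run of letters, and windows rich in GC hold the GC box more often by composition.

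The genes that act around the precursor were largely present. Of 66 genes in 7 lists, 64 were detected, against 57.7% of all protein-coding genes. Of these, 53 had a TPM of at least 5, a level for which the share over all genes was not computed. None of the 62 with enough counts was 2-fold apart between the libraries, near the 0.273% of all genes so tested. Among the other secretase genes all 6 were detected. Adam9, a protease related to Adam10, had 16.4 ± 0.325 TPM and Aph1b, an alternative to Aph1a, 11.2 ± 2.76 TPM. Aph1b and Aph1c are near-identical copies, so the division of reads between them is uncertain. Of the Adam10 tetraspanins, which steer the protease to the surface, and its inhibitors, 6 of 8 were detected, led by Tspan5 with 84.5 TPM, Tspan17 with 37.9 TPM and the inhibitor Timp3 with 24.2 TPM. Tspan10 (0.120 and 0 TPM) and Timp1 (0 and 0.0600 TPM) were not detected, each with 1 expected count in all.

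Proteins that bind App were among the more abundant genes of the pathway. All 12 adaptors and binding partners were detected, with a median of 55.2 TPM, led by Itm2b (415 ± 9.68 TPM) and Itm2c (333 ± 9.48 TPM), membrane proteins that bind App and limit its processing, and by the cytoplasmic adaptor Apbb1 (155 ± 5.71 TPM). All 12 genes of sorting and endocytosis were detected, with a median of 66.6 TPM, led by Rtn3 (307 TPM), Rtn4 (188 TPM) and the sorting receptor Sort1 (146 TPM). All 11 genes of amyloid beta binding and degradation were detected, with a median of 12.7 TPM. They ranged from the lipid carrier Apoe (913 and 981 TPM), Cst3 (886 and 934 TPM) and Clu (392 and 404 TPM) down to A2m with 1.48 TPM, and the degrading enzymes Ide and Mme had 14.01 and 2.82 TPM. Of 5 genes tied to gamma-secretase all were detected, led by Bsg (221 TPM), Tmed10 (65.7 TPM) and Rer1 (25.0 TPM). All 12 other substrates were detected, led by Prnp (398 TPM), Scn2b (103 TPM) and Sez6l (93.3 TPM). A2m, Ide and Mme were named after their values were seen.

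**Figure D5:**
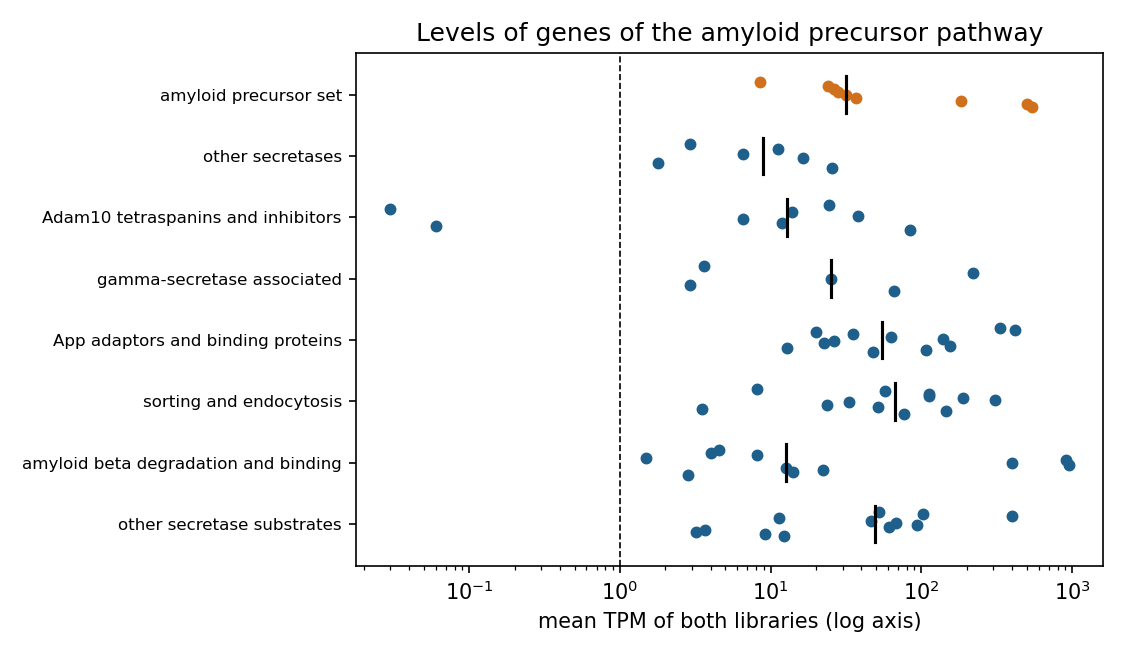
Mean TPM of both libraries (log axis) for the 9 genes (orange) and for 7 lists of pathway genes (blue); black bars are list medians and the dashed line is the detection level of 1 TPM. List medians run from 8.91 TPM for the other secretases to 66.6 TPM for sorting and endocytosis; Tspan10 and Timp1 lie left of the line.

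The libraries had 31422827 and 31303010 expected counts. Markers of 7 cell classes were detected in full, 36 of 36 genes, against 57.7% of all protein-coding genes. They included dentate granule (5 of 5, summed 223 and 237 TPM) and pyramidal genes (6 of 6, 2110 and 2197 TPM). Astrocyte (5 of 5, 1069 and 1018 TPM) and oligodendrocyte genes (5 of 5, 936 and 834 TPM) were among them too. Detection of these genes does not show which layer was taken. Of 5 choroid plexus genes, 2 were detected, and Kcnj13, Folr1 and Clic6 were below 1 TPM. Ttr, the main choroid plexus transcript, was 2-fold apart with 10.6 and 23.1 TPM. Kl, the other one detected, was not, with 4.04 and 3.96 TPM. The parts of oligodendrocytes and of choroid plexus in the small differences between the libraries were not tested.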

How the data were processed

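Total RNA libraries of 1 group, 2 biological replicates, were analysed from the authors' deposited tables. The authors deposited expected counts and TPM per gene and per transcript, made from transcriptome alignments, with bounds of a within-library TPM interval of unstated level, and a second transcript table with estimated counts and TPM made directly from the reads. Per the file headers and listings the build is mm10 with GENCODE M21; no program or version is stated for them (not given in the sources used here). TPM covers every entry, spike-ins and short RNAs included. Nuclear protein-coding genes held 42.1% and 41.2% of TPM, and 74.2% and 74.4% in the second table. TPM levels were thus not on the same scale across tables. Reads of the CAST/EiJ alleles were set against the mm10 sequence, whose effect was not tested.

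Means, SDs, shares and ratios were computed with Python 3.11.15, pandas 2.3.3 and numpy 2.4.6. Second-table gene values are sums over transcripts. Exon use came from GENCODE M21 exon positions. TMM factors came from edgeR 4.0.16 under R 4.3.3, on expected counts rounded to whole numbers, and no p-value was computed. The 2-fold rule was tested on simulated counts, only with changes larger than 2-fold in genes with many counts. The exon rule was checked on made-up exon positions. Named were the 9 genes, transcripts with at least 5% of a gene's TPM in either table, and of each pathway list the 3 highest genes and any not detected or 2-fold apart. A gene that this rule takes is not reported here. The members and lists were chosen with earlier results of these data known. Alternatives were other detection levels, folds, count minima, tables and scalings, and leaving out each library. Total expected counts were 31422827 and 31303010.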

Additional observations from a re-analysis of the deposited data

How the results depend on the processing

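With 1 group of 2 libraries, none of the values has a test, and the spread comes from 2 libraries not stated to be separate animals. All 9 genes were also detected at TPM 5 and in the second quantification; a lower TPM or a single library could not lose any. Of the 9, 0 were 2-fold apart under any setting. Leaving out either library gave 40.5% to 40.9% for the App share of the precursor TPM, 92.3% to 92.4% for App TPM without the Kunitz exon, 50.1% to 51.5% for that of Aplp2, and 73.8 to 74.5 for the median percentile. In the second quantification these were 40.1%, 91.1%, 46.3% and 76.8, and in expected counts the App share was 48.6%. Alternatives chosen after seeing the data were the spanning-only counts (App 91.1% in the second quantification; Aplp2 35.9% in the first and 26.1% in the second), coding transcripts only for Aplp2 (38.1%), and the rescaled second quantification. Of the 36 values for single genes and top transcripts under other tables or scalings, 35 moved by more than 1 SD, all but the share of Aph1a-202. For mean TPM a change of total moves the value by itself, so those moves say nothing about the genes. With both quantifications rescaled to nuclear protein-coding genes, the second over the first ran from 0.768 for Aph1a to 1.13 for Aplp2. With 2 libraries, leaving 1 out cannot move a mean by 1 SD and shows no stability. Of 66 pathway genes, 53 were detected at TPM 5 and 64 in the second quantification. No paired analysis was possible because the series holds a single group. Psen2 had the fewest counts (323 and 301), and the part of depth in the division among transcripts was not tested.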
